A study of Bos taurus with 8 samples.

Results

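Mitochondrial ribosomal proteins are the nuclear-encoded proteins of the ribosome that works inside mitochondria. The genes described here are all those whose platform symbol starts with MRPL or MRPS and a number, which gave 75 genes and 128 probes of 43794 probes on the array. The array carried tested probes for 14138 named genes in all. The rule reads the symbol and no measured value, but this group of genes was picked for description with earlier results of these data known. MRPL57, MRPL58 and DAP3 are also mitoribosomal, but the platform table lists them under symbols outside this rule, so they are described below with related genes.

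The mitochondrial ribosome reads the messenger RNAs of mitochondrial DNA and makes core subunits of the respiratory chain and of ATP synthase. Its large subunit holds the peptidyl transferase centre and the exit tunnel, and its small subunit decodes the messenger. Its proteins are made in the cytosol and imported. Part of them have homologues in bacterial ribosomes and the rest are known only from mitochondria. In granulosa cells, which line the follicle and turn to progesterone synthesis as ovulation approaches, mitochondria also house the enzyme that cleaves the cholesterol side chain.

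The RNA came from Holstein Friesian cows that had received FSH to stimulate follicle growth, norgestomet implants and prostaglandin, with GnRH given to induce the surge of luteinizing hormone (LH). Pre-LH cells were taken 2 h before the surge from follicles of 6 to 8 mm. Cells of the 6 h group came from follicles above 8 mm, 8 h after GnRH, and cells of the 22 h group from pre-ovulatory follicles, 24 h after GnRH, so follicle stage moved together with time. Granulosa cells were scraped from the follicle wall, and the labels describe them as mural granulosa cells with a small theca admixture. On each of 8 2-colour arrays, RNA of 1 post-LH replicate was compared with RNA of 1 pre-LH replicate. There were 4 arrays with 6 h RNA and 4 with 22 h RNA. The post-LH RNA was in Cy5 for replicates 1 and 2 and in Cy3 for replicates 3 and 4. The design text gives 4 biological replicates at each time, so pre-LH replicates must have served on more than 1 array. The labels do not say how many animals made up a replicate, and the p-values measure the spread between these arrays. All values below are log2 ratios of post-LH over pre-LH RNA from the same array, so both times share the pre-LH group. With RNA of many cells on each array, fewer cells expressing a gene and less of its RNA per cell cannot be told apart.

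Before the results, the replicate 4 arrays have to be set apart. The level of each gene, taken as the mean of both channels, correlated between the replicate 4 arrays of 6 h and 22 h with r = 0.987 across genes, and among the arrays of replicates 1 to 3 with r from 0.981 to 0.996. Between a replicate 4 array and an array of another number, r was only 0.857 to 0.884. Genes are not independent replicates, and these r values serve as a description. Of the 75 members, 22 had a level on both replicate 4 arrays that lay more than 1 log2 unit outside all other arrays, 19 below and 3 above. Among all genes tested the share was 12.6%, and among the members it was 29.3%. The mean of the replicate 4 arrays minus that of the other arrays was -3.24 log2 units for MRPL22, -2.73 for MRPL50 and -2.67 for MRPL42, whereas it was 1.86 for MRPL12 and 1.71 for MRPS6. MRPL37 differed by only 0.05. A ratio compares channels of 1 array, so this split is not itself a change after LH. Its part in the ratios was not tested beyond leaving these arrays out, and counts of called genes at 6 h and 22 h are also given below without replicate 4 of both times.

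**Figure D1:**
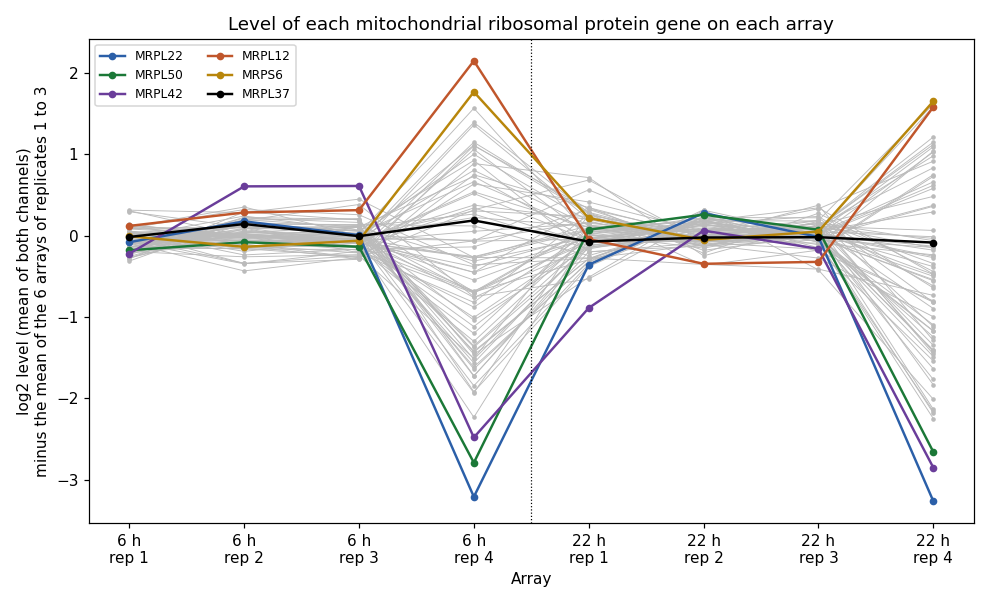
Level of the brightest probe of each of the 75 members on each array, as the mean of both channels on the log2 scale minus the mean over the 6 arrays of replicates 1 to 3; each line is 1 gene, 6 genes are coloured and the rest are grey. The lines spread apart on the replicate 4 array of both times, with MRPL22, MRPL50 and MRPL42 far below 0, MRPL12 and MRPS6 above it, and MRPL37 near it.

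A list of 7 genes known to answer the surge was used to check the time labels, and 5 of them rose and 1 fell at 6 h, and 5 rose and 2 fell at 22 h. PGR, the progesterone receptor, rose at 6 h by 3.32 and lay 3.75 log2 units lower at 22 h than at 6 h, and the ovulatory genes RGS2, PTX3 and TNFAIP6 rose by over 3 log2 units at both times. STAR, which delivers cholesterol to the mitochondrial inner membrane, fell at 6 h by 0.47 (adjusted p = 0.0285), a call lost without any 1 of the 6 h arrays (adjusted p up to 0.116), and at 22 h by 0.80 (adjusted p = 0.00391). PGR also fell at 22 h, by 0.44. With replicate 4 of both times left out, 5 of the 7 rose at 6 h, where STAR had an adjusted p of 0.156, and 5 rose and 2 fell at 22 h. All 12 granulosa markers were tested, and 10 of them stood above the negative controls in all 16 channels. All 9 theca markers did so too. Of the theca markers, 5 fell and 1 rose at 6 h, and 6 fell and 1 rose at 22 h. Their summed normalised intensity ranged from 37068 to 47104 in the pre-LH channels, from 23018 to 29652 at 6 h and from 31149 to 42899 at 22 h. The theca gene CYP17A1 rose by 0.36 at 6 h, a call lost without 6 h replicate 2, 3 or 4 (adjusted p up to 0.121), and fell by 1.88 at 22 h. Of the 12 granulosa markers, 8 fell at 6 h, and 6 fell and 1 rose at 22 h, with a summed intensity from 121677 to 139873 before LH, from 95923 to 131143 at 6 h and from 42928 to 120202 at 22 h. Among 11 leukocyte and blood markers, 4 rose and 1 fell at 6 h, with sums of 2181 to 4192 before LH, 2491 to 4180 at 6 h and 2212 to 5373 at 22 h. Of 7 endothelial markers, 4 fell at 22 h, with sums of 8398 to 12965 before LH, 9499 to 13079 at 6 h and 5494 to 9703 at 22 h. Among 6 oocyte markers, DAZL rose at 6 h by 0.46, and GDF9 was above the negative controls in fewer than 8 of the 16 channels; the sums ranged from 828 to 881 before LH, from 890 to 938 at 6 h and from 822 to 853 at 22 h. On the arrays of replicates 1 to 3 alone, 4 theca markers fell at 6 h, the rise of CYP17A1 was lost, and 1 rose and 6 fell at 22 h, and 7 granulosa markers fell at 6 h and 6 fell and 1 rose at 22 h. Of the leukocyte and blood markers 2 then rose and 1 fell at 6 h and 1 fell at 22 h, of the endothelial markers 4 fell at 22 h, and DAZL still rose at 6 h. The part of these cell types in the members' changes was not tested.

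Of the 75 members, 72 were above the negative controls in all 16 channels, and none was saturated. MRPL46, MRPS12 and MRPS35 missed that limit on some channels. All 75 genes were tested through 126 of their probes, and the dim probes left untested were 1 of MRPS10 and 1 of MRPS35. The value of a gene is that of its brightest tested probe. The 3 members with the brightest probes were MRPL53, MRPL12 and MRPL14, which does not rank the genes by RNA level.

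At 6 h after the surge, 5 members rose and 12 fell at an adjusted p under 0.05. The share called was 22.7% of the members against 24.3% of all genes tested. Falls made up 16% of the members against 12.8% of all genes, and rises 6.67% against 11.5%. The median log2 change of the members was -0.10, beside -0.00 for all genes. At 22 h, 4 members rose and 16 fell, which is 26.7% of the members called against 20.4% of all genes. There falls made up 21.3% of the members against 10.6% of all genes, and rises 5.33% against 9.75%, with a median of -0.06 beside 0.01. Only MRPS6 reached a 2-fold difference at 6 h and no member did so at 22 h, while 6 members passed 1.5-fold at 6 h and 5 at 22 h. These counts by fold were not made over all genes, so they are not read as particular to the members. When replicate 4 of both times was left out, 4 members rose and 14 fell at 6 h, and 2 rose and 13 fell at 22 h. Falls then made up 18.7% of the members against 8.78% of all genes at 6 h and 17.3% against 9.03% at 22 h, and rises 5.33% against 8.51% and 2.67% against 6.67%. Of the 17 members called at 6 h, 15 stayed called, without MRPL17 and MRPL53, and of the 20 called at 22 h, 13 stayed called, without MRPL13, MRPL22, MRPL27, MRPL35, MRPL42, MRPS23 and MRPS33. The adjusted p of these lost calls ran from 0.0521 for MRPL22 to 0.210 for MRPL27. The 5 rises at 6 h became 2 without 6 h replicate 1, 2 or 4 and 3 without 6 h replicate 3. The 4 rises at 22 h became 2 without 6 h replicate 3 or 22 h replicate 1 and 1 without 22 h replicate 3. The 16 falls at 22 h became 10 without 22 h replicate 1 and 8 without 22 h replicate 3, and 12 falls at 6 h became 8 without 6 h replicate 2. Over all genes, the share called at 6 h went from 24.3% to 13.7% without 6 h replicate 2. At 22 h it went from 20.4% to 10.4% without 22 h replicate 3. The calls also rest on the loess curve. With each array centred on its median instead, no member was called at either time, 4 members had an unadjusted p under 0.05 at 6 h and 9 at 22 h, and over all genes the calls at 6 h were 76 higher and 9 lower, where loess gave 1629 higher and 1808 lower. At 22 h that centring called 100 genes higher and 36 lower, where loess gave 1379 and 1499. With the ratios scaled between arrays after loess, no member was called at 6 h, where 17 had an unadjusted p under 0.05, and 2 rose and 8 fell at 22 h. That scaling called 210 genes higher and 129 lower at 6 h, and 944 higher and 794 lower at 22 h.

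**Figure D2:**
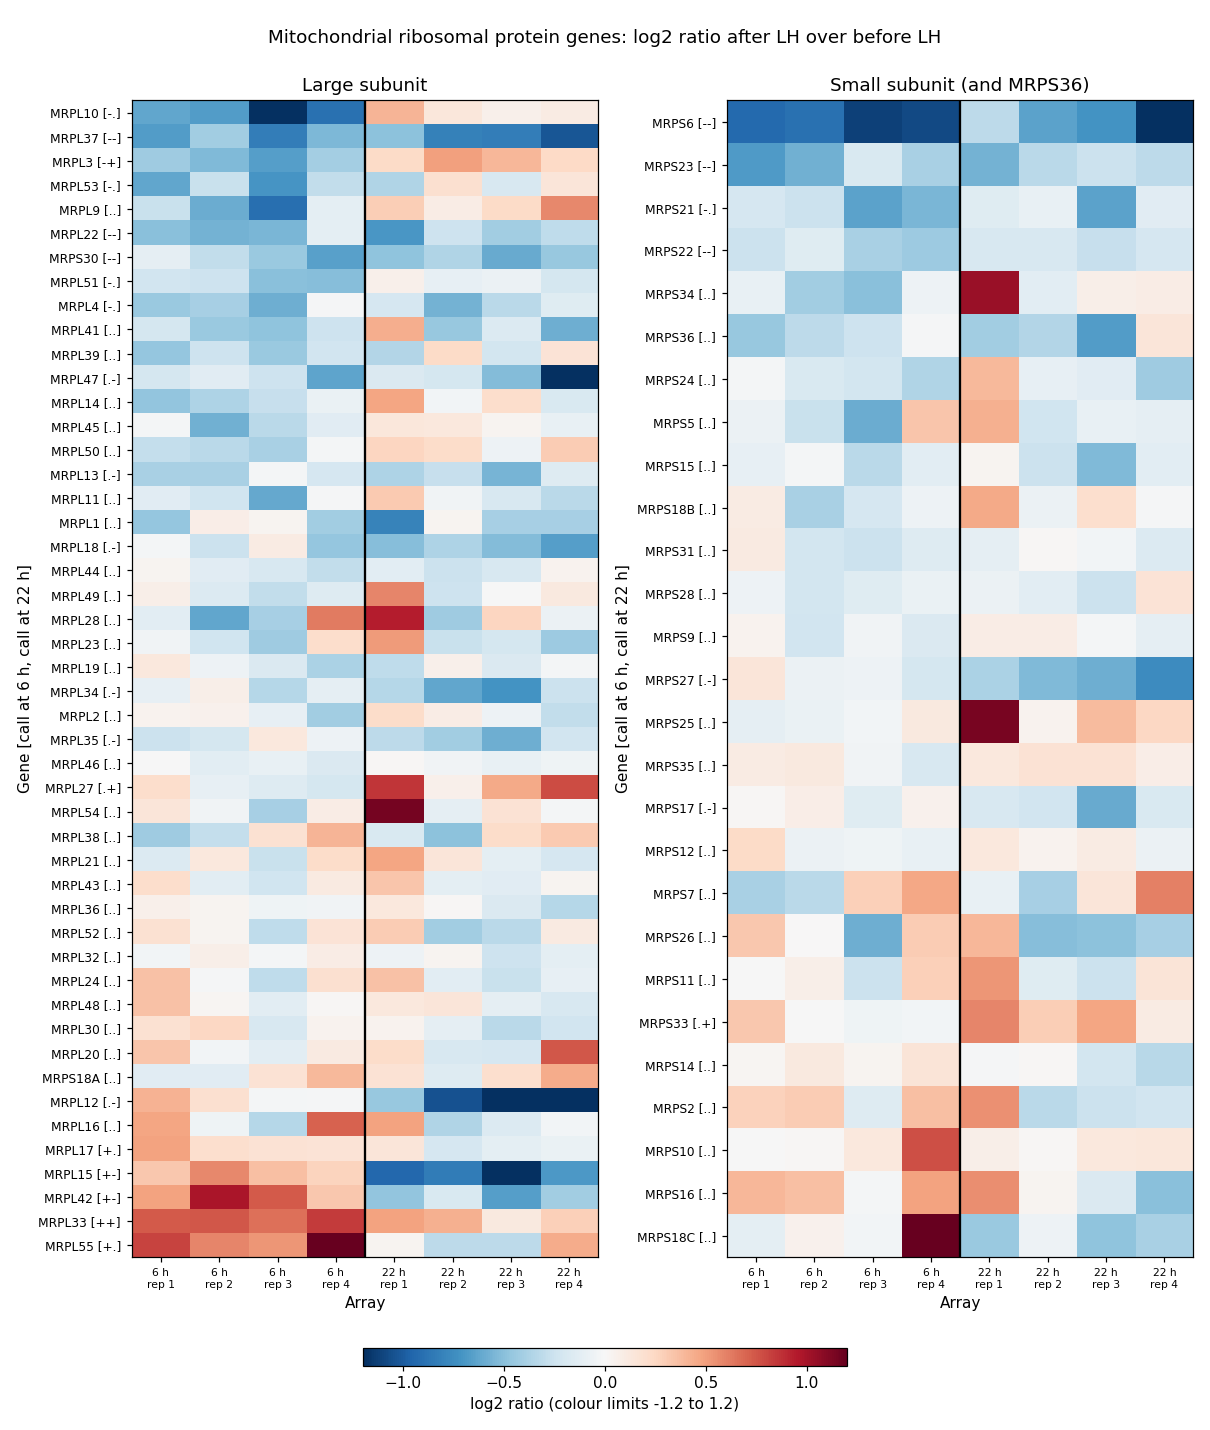
Log2 ratio of post-LH over pre-LH RNA on each of the 8 arrays (columns) for each of the 75 members (rows, ordered by the 6 h change), with the large subunit on the left and the small subunit and MRPS36 on the right; brackets give the call at 6 h and then at 22 h (+ rose, - fell, . not called). Rows that stay blue over all arrays, such as MRPL37 and MRPS6, stand beside rows that turn colour between the times, such as MRPL10, MRPL3, MRPL15 and MRPL42.

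Array by array, the members' median was -0.03, -0.13, -0.20 and -0.06 on the 6 h arrays of replicates 1 to 4, with 43, 51, 62 and 45 of the 75 members below 0. On the 22 h arrays the medians were 0.09, -0.13, -0.19 and -0.11, with 31, 50, 56 and 50 members below 0. The median of the 22 h replicate 1 array was the only one above 0, and MRPL54 (1.15), MRPS25 (1.14) and MRPS34 (1.04), none of them called, had their highest ratios there. All 4 ratios at 6 h were below 0 for 27 members, or above 0 for 6, where such shares over all genes were 21.0% and 18.0%. At 22 h they were below 0 for 19 members and above 0 for 9, against 17.7% and 17.8% of all genes. All 8 ratios were below 0 for 10 members and above 0 only for MRPL33. That count was not made over all genes, so it is not read as particular to the members.

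**Figure D3:**
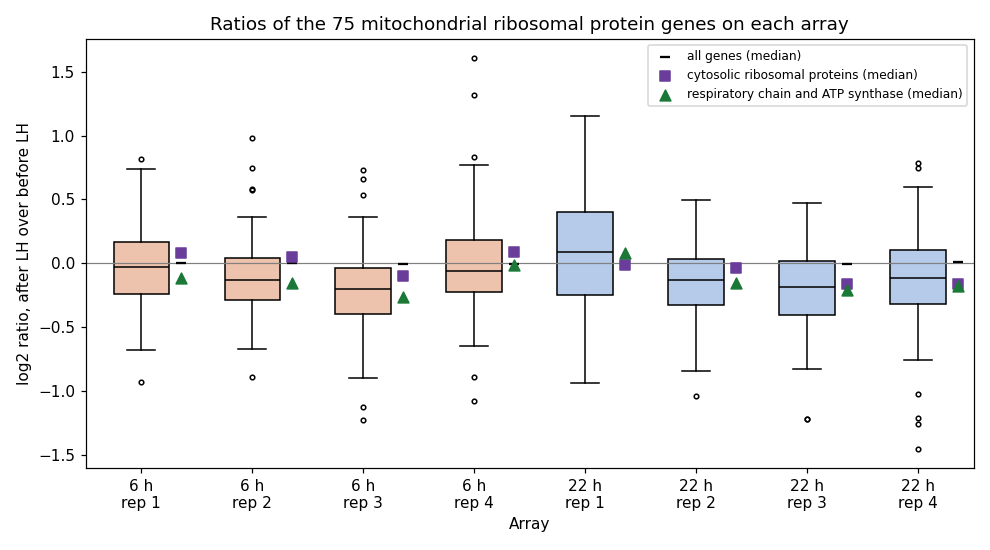
Log2 ratio of post-LH over pre-LH RNA of the 75 members on each array, as boxes from the lower to the upper quartile with the median as a line, whiskers to the last value within 1.5 box lengths and circles beyond; symbols to the right of each box give the median of all genes, of the cytosolic ribosomal proteins and of respiratory chain and ATP synthase genes. The members' medians lie between -0.20 and 0.09, and only that of the 22 h replicate 1 array is above 0.

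The members placed in the large subunit numbered 48, those in the small subunit 26, and MRPS36 belongs to neither, since its protein is known as a component of the 2-oxoglutarate dehydrogenase complex. In the large subunit 5 genes rose and 8 fell at 6 h, and 3 rose and 11 fell at 22 h, with medians of -0.12 and -0.06. The rises at 6 h were 10.4% of that class beside 11.5% of all genes, and the falls 16.7% beside 12.8%. At 22 h its rises were 6.25% beside 9.75% and its falls 22.9% beside 10.6%. Small subunit genes gave 0 rises and 4 falls at 6 h, with 1 and 4 in these directions at an unadjusted p under 0.05, and 1 rise and 5 falls at 22 h, with medians of -0.04 and -0.07. Falls made up 15.4% of this class at 6 h and 19.2% at 22 h. By origin, 4 of 48 members with bacterial homologues rose and 6 fell at 6 h, and 3 rose and 10 fell at 22 h. The falls were 12.5% of them at 6 h, near the 12.8% of all genes, and 20.8% at 22 h. Of the 26 mitochondria-specific members, 1 rose and 6 fell at 6 h and 1 rose and 6 fell at 22 h, so that falls made up 23.1% at each time. In the fit that left out replicate 4 of both times, the large subunit had 4 rises and 10 falls at 6 h and 2 rises and 7 falls at 22 h. The small subunit then had 4 falls at 6 h and 5 at 22 h, and MRPS36, in neither class, fell at 22 h. The members with bacterial homologues then had 3 rises and 8 falls at 6 h and 2 rises and 8 falls at 22 h, and the mitochondria-specific members 1 rise and 6 falls at 6 h and 4 falls at 22 h. The differences between these classes were not tested.

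The members that fell at both times were MRPS6, MRPL37, MRPS23, MRPS22, MRPS30 and MRPL22. MRPS6, the homologue of a bacterial small subunit protein, had 6 h log2 ratios of -0.93, -0.89, -1.12 and -1.08 for replicates 1 to 4, and 22 h ratios of -0.32, -0.64, -0.72 and -1.26. Every array was below 0, and the 22 h values spread more widely than the 6 h values and overlapped them. The fitted change was -1.01 ± 0.10 (SE, n = 4 arrays) at 6 h, a fall of 2.01-fold (adjusted p = 0.000907), and -0.73 ± 0.10 at 22 h (adjusted p = 0.00357). Its other probe also fell, by 0.93 and by 0.62. In the reference annotation MRPS6 overlaps SLC5A3, a sodium and myo-inositol transporter gene, whose own probe stood at -0.06 at 6 h (adjusted p = 0.322) and -0.02 at 22 h. The strand read by the array is not given in the sources used here.

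MRPL37, a mitochondria-specific large subunit protein, gave ratios of -0.67, -0.42, -0.83 and -0.54 at 6 h and of -0.49, -0.81, -0.83 and -1.03 at 22 h. It was low on all 8 arrays, and the times overlapped. The fitted changes were -0.62 ± 0.08 (adjusted p = 0.00259) and -0.79 ± 0.08 (adjusted p = 0.00109, SE, n = 4 arrays each). MRPS23, a mitochondria-specific small subunit protein, had ratios of -0.68, -0.57, -0.18 and -0.39 at 6 h and of -0.56, -0.33, -0.25 and -0.31 at 22 h. It was below 0 throughout, with changes of -0.46 ± 0.06 (adjusted p = 0.00233) and -0.36 ± 0.06 (adjusted p = 0.00685). Of its 3 probes, 2 fell at 6 h and 1 at 22 h, and the smallest changes among them were -0.03 and -0.00. MRPS30, which carries a small subunit name but sits in the large subunit, had 6 h ratios of -0.11, -0.30, -0.45 and -0.65 and 22 h ratios of -0.48, -0.36, -0.61 and -0.45. Its changes were -0.38 ± 0.06 (adjusted p = 0.00676) and -0.47 ± 0.06 (adjusted p = 0.00308). The falls of MRPS6, MRPL37, MRPS23 and MRPS30 passed at both times with any 1 array left out. MRPS22, a mitochondria-specific small subunit protein known in humans from variants in ovarian insufficiency, fell by 0.31 and 0.21, and both its probes passed at 6 h. MRPL22, of the exit tunnel, fell by 0.43 and 0.42. These genes are named after their values were seen. Without 22 h replicate 1, 2 or 3, MRPS22 missed the threshold at 22 h (adjusted p up to 0.0624). MRPL22 missed it at 6 h without 6 h replicate 1, 2 or 3 (up to 0.0911) and at 22 h without 6 h replicate 1 or 22 h replicate 1, 3 or 4 (up to 0.126).

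MRPL10, MRPL3 and MRPL53 fell at 6 h and were not called lower at 22 h. MRPL10, the stalk-base protein that anchors MRPL12, had ratios of -0.63, -0.67, -1.23 and -0.90 at 6 h and of 0.41, 0.13, 0.06 and 0.10 at 22 h. All 6 h arrays were below 0 and all 22 h arrays above it. The 6 h change was -0.85 ± 0.07 (SE, n = 4 arrays, adjusted p = 0.000468), a fall of 1.81-fold, and the 22 h change of 0.17 had an adjusted p of 0.174. MRPL3, a core protein near the peptidyl transferase centre, had 6 h ratios of -0.43, -0.53, -0.66 and -0.41 and 22 h ratios of 0.23, 0.49, 0.40 and 0.24. Its groups did not overlap and had opposite signs, and both changes passed, at -0.51 ± 0.06 (adjusted p = 0.00212) and 0.34 ± 0.06 (adjusted p = 0.0126). The later rise missed the threshold without 22 h replicate 3 (adjusted p = 0.0772). MRPL53, a mitochondria-specific large subunit protein, had ratios of -0.63, -0.26, -0.71 and -0.30 at 6 h, with a change of -0.48 ± 0.12 (adjusted p = 0.0332), and of -0.36, 0.19, -0.19 and 0.15 at 22 h. Its 22 h values lay on both sides of 0. The 6 h call was lost without any 1 of the 6 h arrays or without 22 h replicate 3 (adjusted p up to 0.156), and its dimmer probe stood at -0.05. The further falls at 6 h, MRPL4 and MRPS21, were of 0.36 and 0.41. MRPL4 missed the threshold without 6 h replicate 1, 2 or 3 or 22 h replicate 3 or 4 (adjusted p up to 0.170), and MRPS21 without 6 h replicate 2 (adjusted p = 0.0598).

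MRPL51, a mitochondria-specific large subunit protein, depended on the probe. Its brightest probe gave -0.23, -0.25, -0.50 and -0.51 at 6 h and 0.06, -0.10, -0.07 and -0.21 at 22 h, a 6 h change of -0.37 ± 0.04 (SE, n = 4 arrays, adjusted p = 0.00183). The other probe gave 0.39, 0.61, 0.15 and 0.07 at 6 h and -0.13, 0.04, -0.34 and -0.67 at 22 h. That probe rose at 6 h by 0.31 (adjusted p = 0.0190) and fell at 22 h by 0.28 (adjusted p = 0.0340), so no direction is given for the gene. MRPL51 was the only member whose probes were called in both directions. Of the 37 members with several tested probes, the probes had the same sign for 31 at 6 h, for 30 at 22 h and for 26 in the difference between the times. All probes were called in the same direction for 2 of the 9 such members whose brightest probe was called at 6 h, for 2 of 12 at 22 h and for 0 of 5 between the times.

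Rises at 6 h were led by MRPL55, MRPL33 and MRPL42. MRPL55, of the bacterial L31 family, had ratios of 0.81, 0.58, 0.53 and 1.61 at 6 h and of 0.03, -0.31, -0.31 and 0.44 at 22 h. The groups did not overlap, and 6 h replicate 4 was the highest array. Its 6 h change was 0.88 ± 0.19 (SE, n = 4 arrays, adjusted p = 0.0194), a rise of 1.85-fold, and 3 of its 4 probes rose, by 0.76 to 0.88. The call was lost without 6 h replicate 1 (adjusted p = 0.0949), 2 (0.0702) or 4 (0.0593). MRPL55 overlaps GUK1, guanylate kinase, in the annotation, whose probe stood at -0.02 at 6 h (adjusted p = 0.883). MRPL33, of the bacterial L33 family, had ratios of 0.74, 0.75, 0.66 and 0.84 at 6 h and of 0.48, 0.42, 0.12 and 0.29 at 22 h. All 8 arrays were above 0, and each 6 h array was above each 22 h array. Its changes were 0.75 ± 0.05 (adjusted p = 0.000281) and 0.33 ± 0.05 (adjusted p = 0.00847), and both passed with any 1 array left out. MRPL17, a protein near the exit tunnel, had ratios of 0.48, 0.20, 0.17 and 0.16 at 6 h and of 0.15, -0.20, -0.12 and -0.08 at 22 h. Its 6 h change of 0.26 ± 0.07 (adjusted p = 0.0416) missed the threshold without any 1 of the 6 h arrays or without 22 h replicate 3 or 4 (adjusted p up to 0.174).

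MRPL42 and MRPL15 rose at 6 h and fell at 22 h. MRPL42, a mitochondria-specific large subunit protein, had ratios of 0.48, 0.98, 0.73 and 0.32 at 6 h and of -0.47, -0.19, -0.66 and -0.42 at 22 h. Its changes were 0.63 ± 0.10 (SE, n = 4 arrays, adjusted p = 0.00708) and -0.43 ± 0.10 (adjusted p = 0.0352). The fall at 22 h missed the threshold without any 1 of the 22 h arrays (adjusted p up to 0.168), and the dimmer probe, at 0.44 and -0.31, passed at neither time. MRPL15, a core large subunit protein, had ratios of 0.32, 0.58, 0.36 and 0.27 at 6 h and of -0.94, -0.84, -1.22 and -0.69 at 22 h. All its 6 h arrays were above 0 and all its 22 h arrays far below it. The fall at 22 h was -0.92 ± 0.09 (adjusted p = 0.000785), 1.90-fold, and passed with any 1 array left out. The rise at 6 h was 0.38 ± 0.09 (adjusted p = 0.0230) and missed the threshold without any 1 of the 6 h arrays (adjusted p from 0.0641 to 0.118). A probe nearly as bright also rose at 6 h and fell at 22 h, by 0.47 and 0.62, and the dim probe moved by 0.07 and -0.01.

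**Figure D4:**
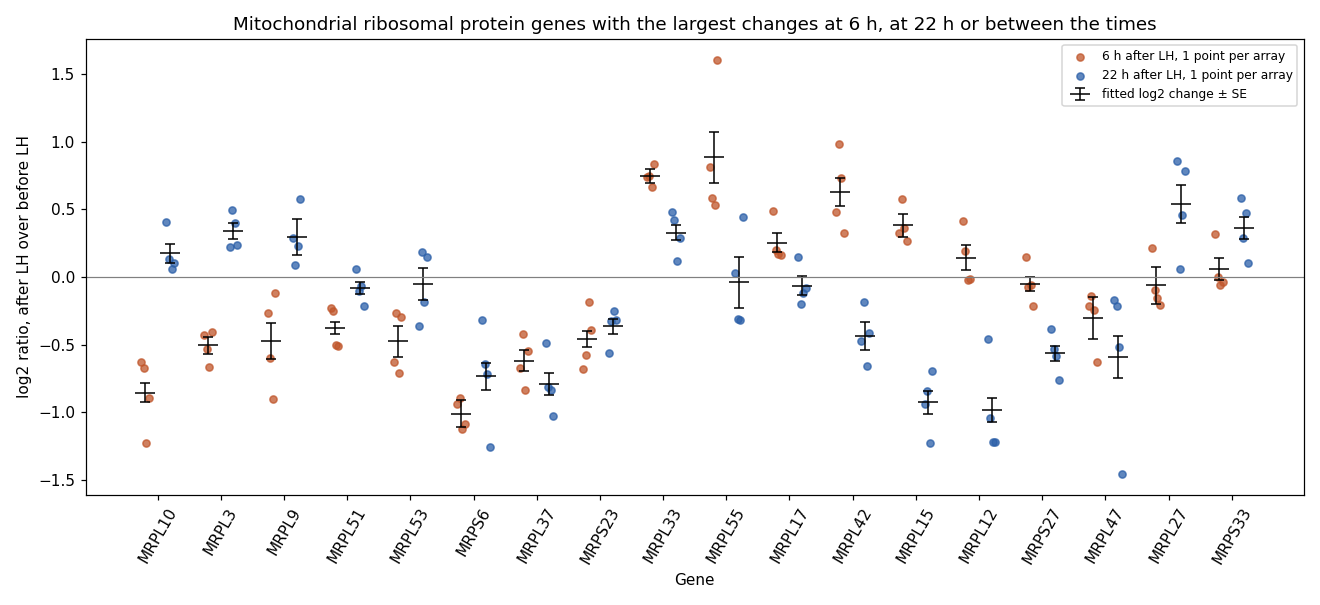
Log2 ratio of post-LH over pre-LH RNA for 18 members. They are the up to 6 largest rises and up to 6 largest falls past the threshold in each comparison. Points are arrays (orange 6 h, blue 22 h, 4 each), and black marks give the fitted change ± SE. MRPL10, MRPL3 and MRPL9 have their 22 h points above the 6 h points, MRPL42, MRPL15, MRPL12 and MRPS27 have them below, and MRPS6 and MRPL37 are below 0 at both times.

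Falls seen at 22 h and not at 6 h were led by MRPL12. MRPL12, the stalk protein that recruits translation factors and in human cells also binds the mitochondrial RNA polymerase, had ratios of 0.41, 0.20, -0.02 and -0.01 at 6 h and of -0.45, -1.04, -1.22 and -1.21 at 22 h. The 22 h arrays were all lower than the 6 h arrays. Its change was -0.98 ± 0.09 at 22 h (SE, n = 4 arrays, adjusted p = 0.000758), 1.98-fold, against 0.14 at 6 h (adjusted p = 0.364). Its other probe, near the lower end of detection, stood at -0.01 at 22 h. MRPS27, a mitochondria-specific small subunit protein with pentatricopeptide repeats, had 6 h ratios of 0.15, -0.07, -0.06 and -0.22 and 22 h ratios of -0.38, -0.53, -0.58 and -0.76, again without overlap. It fell at 22 h by 0.56 ± 0.05 (adjusted p = 0.000926). Its other probe stood at 0.14 at 6 h, at -0.15 at 22 h and at -0.29 between the times, and passed in no comparison. MRPL47, of the exit tunnel, had ratios of -0.21, -0.14, -0.25 and -0.63 at 6 h and of -0.17, -0.21, -0.52 and -1.45 at 22 h. Replicate 4 was its lowest array at both times, and there the gene's level differed from that of the other arrays by -2.04 log2 units. Its 22 h change of -0.59 ± 0.16 (adjusted p = 0.0495) was -0.35 without 22 h replicate 4, and its call was lost without any 1 other array (adjusted p up to 0.0967). ACTL6A, a gene overlapping MRPL47 in the annotation, stood at -0.36 at 22 h (adjusted p = 0.286), the time at which MRPL47 was called, and fell at 6 h by 0.83 (adjusted p = 0.0234).

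The other falls at 22 h, MRPL13, MRPL18, MRPL34, MRPL35 and MRPS17, were of 0.30 to 0.51. MRPL13, MRPL35 and MRPS17 had further probes, none of which was called at 22 h. MRPL35 passed with any 1 array left out. MRPL18 was lost without 22 h replicate 3 (adjusted p = 0.0556) and MRPL34 without 22 h replicate 2 or 3 (up to 0.0822). MRPL13 was lost without 6 h replicate 1, 2 or 4 or 22 h replicate 1 or 3 (up to 0.0771), and MRPS17 without 6 h replicate 1 or 2 or 22 h replicate 1, 2 or 3 (up to 0.0868). Rises at 22 h beside those of MRPL3 and MRPL33 were of MRPL27 and MRPS33. MRPL27, a core large subunit protein, had ratios of 0.86, 0.06, 0.46 and 0.78 at 22 h and of 0.21, -0.10, -0.16 and -0.21 at 6 h. Its spread at 22 h was wide and its lowest 22 h array lay among the 6 h values. The change was 0.54 ± 0.14 (SE, n = 4 arrays, adjusted p = 0.0437) and missed the threshold in the absence of any 1 array but 22 h replicate 2 (adjusted p up to 0.158). MRPS33, a mitochondria-specific small subunit protein, had ratios of 0.59, 0.29, 0.47 and 0.10 at 22 h and of 0.32, -0.00, -0.06 and -0.03 at 6 h. It rose at 22 h by 0.36 ± 0.08 (adjusted p = 0.0283), a call lost without 6 h replicate 3 or 22 h replicate 1 or 3 (adjusted p up to 0.132). Its other probe stood at 0.11 at 22 h and was not called.

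Between the times, 4 members were higher at 22 h than at 6 h and 5 were lower, which is 12% of the members beside 15.1% of all genes. Higher calls made up 7.72% of all genes and lower calls 7.41%. Each time lies in a set of arrays of its own, so time and array set cannot be told apart in this comparison. Each array carries pre-LH RNA in its other channel, but the labels do not say which pre-LH replicate served on which array. The higher members were MRPL10 by 1.03 ± 0.10 (SE of the difference, 4 arrays against 4, adjusted p = 0.00163), MRPL3 by 0.85 ± 0.09 (adjusted p = 0.00204), MRPL9 and MRPL51. MRPL9, a large subunit protein with a bacterial homologue, had ratios of -0.27, -0.60, -0.90 and -0.12 at 6 h and of 0.29, 0.09, 0.23 and 0.58 at 22 h, and differed by 0.77 ± 0.19 (adjusted p = 0.0489). Its groups lay on opposite sides of 0, though it passed at neither time alone. The lower members were MRPL15 by 1.31 ± 0.12 (adjusted p = 0.00141), MRPL12 by 1.13 ± 0.13 (adjusted p = 0.00287), MRPL42 by 1.06 ± 0.15 (adjusted p = 0.00596), MRPS27 by 0.51 ± 0.08 (adjusted p = 0.00796) and MRPL33 by 0.42 ± 0.08 (adjusted p = 0.0174). These lower calls and those of MRPL10 and MRPL3 passed with any 1 array left out. MRPL9 was lost without 6 h replicate 1 or 2 or any 1 of the 22 h arrays (adjusted p up to 0.143). The difference of 0.29 for MRPL51 (adjusted p = 0.0290) was lost without any 1 array but 22 h replicate 2 (adjusted p up to 0.0804), and its other probe differed by -0.58. Higher calls numbered 2 without 6 h replicate 1 or 2 or 22 h replicate 1. Without replicate 4 of both times 3 were higher and 7 lower, and 7 of the 9 calls stayed, without MRPL9 and MRPL51. In that fit 5.30% of all genes were higher and 6.87% lower. With median centring no member was called, with 3 members at an unadjusted p under 0.05, and with scaled ratios only MRPL15 was lower. These 2 settings called 0.156% and 1.72% of all genes.

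The ratios of the times did not overlap for 13 of the 75 members, while the share over all genes was 18.0%. The remaining 47 members passed in no comparison by their brightest probe. Their 6 h changes ran from -0.35 to 0.31 and their 22 h changes from -0.39 to 0.45. Of these 47, only MRPL39, a mitochondria-specific large subunit protein, had a dimmer probe that passed. Its second probe gave -0.33, -0.37, -0.37 and -0.37 at 6 h, a fall of 0.36 (adjusted p = 0.00715), where the brightest probe gave -0.46, -0.25, -0.45 and -0.23, a change of -0.35 (adjusted p = 0.0667). Both probes were thus below 0 on all 6 h arrays, while the 2 dimmest stood at -0.05. MRPL14, a large subunit protein with a bacterial homologue, had a change of -0.30 at 6 h (adjusted p = 0.127) and 0.12 at 22 h (adjusted p = 0.576). The MRPS18 family holds 3 paralogues, of which MRPS18A sits in the large subunit. MRPS18A stood at 0.07 and 0.17, MRPS18B at -0.14 and 0.14, and MRPS18C at 0.31 and -0.34, and none passed at either time. The 6 h ratios of MRPS18C were -0.12, 0.05, -0.03 and 1.32, so its mean follows replicate 4. MRPS36 stood at -0.26 (adjusted p = 0.214) and -0.32 (adjusted p = 0.141). Its 22 h ratios were -0.41, -0.35, -0.67 and 0.15 for replicates 1 to 4. Without replicate 4 of both times it was called lower at 22 h and not called at 6 h.

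The proteins of the cytosolic ribosome and nuclear-encoded subunits of the respiratory chain and ATP synthase were counted in the same fit. The subunits that the mitochondrial ribosome itself makes were not part of that list. Among 64 cytosolic ribosomal proteins, 2 rose and 3 fell at 6 h, and 0 rose and 12 fell at 22 h, where 1 rose and 18 fell at an unadjusted p under 0.05. Their medians were 0.03 and -0.04. Among 80 subunits of the respiratory chain and ATP synthase, 3 rose and 18 fell at 6 h, and 2 rose and 20 fell at 22 h, with medians of -0.13 and -0.08. After leaving out replicate 4 of both times, 2 cytosolic ribosomal genes rose and 2 fell at 6 h and 1 rose and 6 fell at 22 h, and 2 respiratory genes rose and 15 fell at 6 h and 2 rose and 12 fell at 22 h. With all arrays, falls at 6 h made up 16% of the mitochondrial ribosomal proteins, 4.69% of the cytosolic ribosomal proteins and 22.5% of the respiratory genes, and at 22 h they made up 21.3%, 18.8% and 25%. The differences between these groups were not tested.

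**Figure D5:**
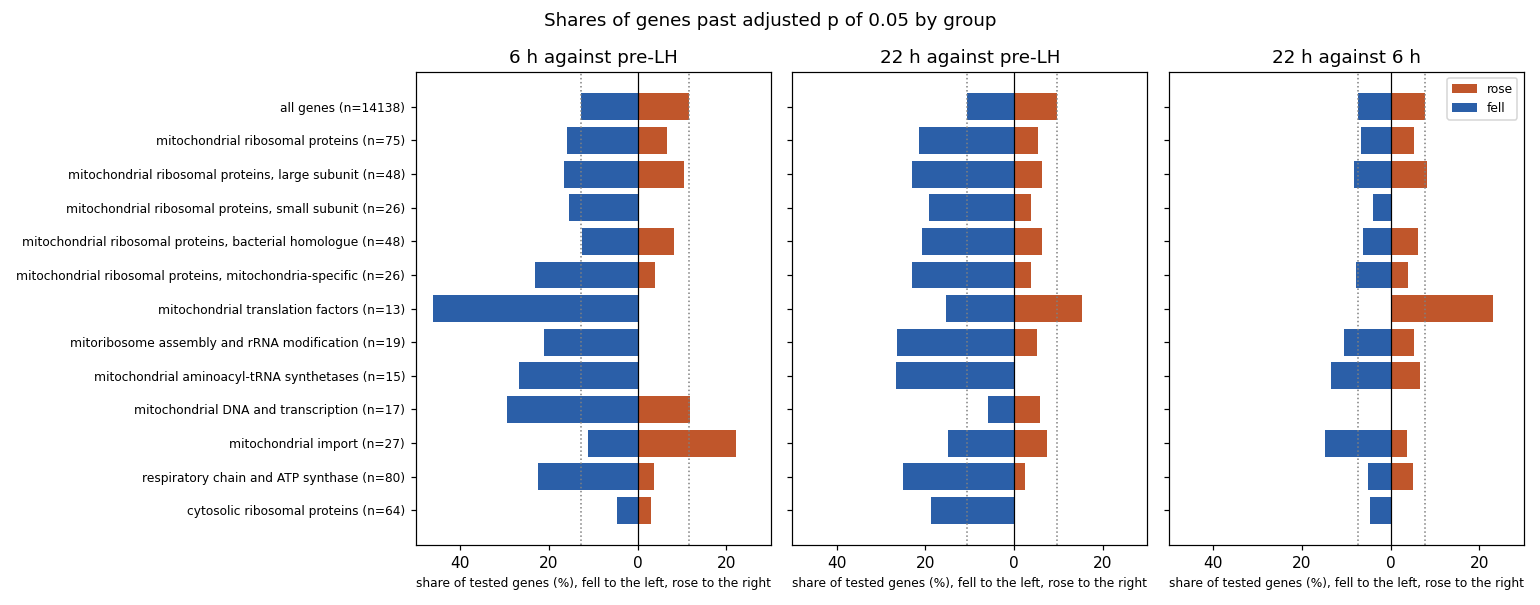
Share of tested genes in percent that rose (orange, to the right) or fell (blue, to the left) at an adjusted p under 0.05 in each comparison, for all genes, the members and their classes, and lists of related genes, with dotted lines at the shares over all genes. At 22 h against pre-LH, falls reach 21.3% of the members where they make up 10.6% of all genes.

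Genes that work with the mitochondrial ribosome were counted in 7 lists, whose share of falls at 6 h ran from 8.33% in the regulators and 11.1% in the import genes to 46.2% in the translation factors, beside 12.8% of all genes. Rises at 6 h were absent from 4 of the lists and made up 22.2% of the import genes and 16.7% of the regulators, beside 11.5% of all genes. No list was tested against the other genes. Of 13 mitochondrial translation factors, 0 rose and 6 fell at 6 h, with 0 and 7 at an unadjusted p under 0.05. At 22 h 2 rose and 2 fell, and 3 were higher at 22 h than at 6 h. GUF1, a back-translocating elongation factor, had ratios of -1.15, -1.34, -0.61 and -0.84 at 6 h and of -1.61, -1.25, -0.97 and -0.47 at 22 h. It was low on every array, with changes of -0.98 ± 0.10 (SE, n = 4 arrays, adjusted p = 0.00101) and -1.07 ± 0.10 (adjusted p = 0.000772). OXA1L, the insertase that receives new proteins at the exit tunnel, had ratios of -0.51, -0.45, -0.91 and -0.93 at 6 h and of 0.00, -0.11, -0.15 and 0.09 at 22 h. Like MRPL10, it had 6 h arrays that all lay under its 22 h arrays, and it fell at 6 h by 0.70 (adjusted p = 0.00138) and differed between the times by 0.66 (adjusted p = 0.0115). The release factor genes MTRF1L and MTRF1 rose at 22 h by 0.39 and 0.38. The calls given for GUF1, OXA1L, MTRF1L and MTRF1 passed with any 1 array left out. The initiation factor gene MTIF2 fell at 22 h by 0.36, and GFM1, an elongation factor gene, was higher at 22 h than at 6 h by 0.62. MTIF2 was lost without 6 h replicate 3 or 4 or 22 h replicate 1 or 3 (adjusted p up to 0.130), and GFM1 in the absence of any 1 array but 6 h replicate 1 and 22 h replicate 1 (adjusted p up to 0.0994). Without replicate 4 of both times, 3 of the 13 factors fell at 6 h, and 2 rose and 2 fell at 22 h. GUF1, OXA1L, MTRF1 and MTRF1L then passed, and MTIF2 and GFM1 did not (adjusted p of 0.0594 and 0.129).

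Of 8 mitoribosomal subunits with symbols outside the rule, NDUFAB1, the mitochondrial acyl carrier protein, fell at 6 h by 0.27 and at 22 h by 0.38, and no other was called. That 1 gene is 12.5% of the list, beside 12.8% of all genes falling at 6 h and 10.6% at 22 h. Its call was lost at 6 h without 6 h replicate 1, 2 or 4 (adjusted p up to 0.109) and at 22 h without 22 h replicate 3 (adjusted p = 0.0513). It passed at neither time without replicate 4 of both times (adjusted p of 0.0810 and 0.0594), and PTCD3, a small subunit protein with pentatricopeptide repeats, was then the only subunit of this list called, with a fall at 22 h by 0.42 (adjusted p = 0.0395), beside -0.31 with all arrays (adjusted p = 0.0740). Of 19 genes of ribosome assembly and ribosomal RNA modification, 0 rose and 4 fell at 6 h, with 2 and 5 at an unadjusted p under 0.05. At 22 h 1 rose and 5 fell. TFB1M, which dimethylates the small subunit ribosomal RNA, fell by 0.42 at 6 h, and TRMT61B, a methyltransferase, by 0.45. C1QBP, a matrix protein, fell at 22 h by 0.69, and TRUB2, a pseudouridine synthase, by 0.44. NGRN, an assembly factor of the large subunit RNA, rose at 22 h by 0.50, with ratios of 0.63, 0.49, 0.50 and 0.39, all above its 6 h values of -0.17 to 0.12. The difference of NGRN between the times was 0.52, that of TRUB2 was -0.52 and that of MTERF3, a factor needed for ribosome biogenesis in mice, was -0.49. TRMT61B was lost at 6 h without 6 h replicate 2, 3 or 4 (adjusted p up to 0.0932), TRUB2 at 22 h without 22 h replicate 3 (0.0505) and between the times without 6 h replicate 1 or 22 h replicate 2, 3 or 4 (up to 0.0696). The calls given for TFB1M, C1QBP, NGRN and MTERF3 passed with any 1 array left out. Without replicate 4 of both times, 3 assembly genes fell at 6 h, and 2 rose and 4 fell at 22 h.

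Of 15 mitochondrial aminoacyl-tRNA synthetase and related genes, which charge the transfer RNAs, 0 rose and 4 fell at 6 h, with 0 and 6 at an unadjusted p under 0.05. At 22 h 0 rose and 4 fell, with 1 and 4 at an unadjusted p under 0.05. RARS2, for arginine, had ratios of -0.84, -0.89, -1.19 and -0.64 at 6 h and of -0.55, -0.30, -0.50 and -0.63 at 22 h. It was below 0 on all arrays, with changes of -0.89 ± 0.09 (SE, n = 4 arrays, adjusted p = 0.000953) and -0.50 ± 0.09 (adjusted p = 0.0113), the later one lost without 22 h replicate 3 (adjusted p = 0.0564). NARS2, for asparagine, fell at 22 h by 0.60 and YARS2, for tyrosine, at 6 h by 0.32. YARS2 was lost without 6 h replicate 1, 2 or 4 (adjusted p up to 0.111). Between the times MARS2 was lower by 0.58 and NARS2 by 0.35, and IARS2 was higher by 0.50. MARS2 passed only without 22 h replicate 4 and NARS2 only without 6 h replicate 4 (adjusted p otherwise up to 0.110 and 0.130), and IARS2 was lost without 6 h replicate 1, 2 or 4 or 22 h replicate 3 or 4 (up to 0.0844). Among the synthetase genes, only RARS2 fell at 6 h and 4 fell at 22 h without replicate 4 of both times.

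Of 17 genes of mitochondrial DNA upkeep and transcription, 2 rose and 5 fell at 6 h and 1 rose and 1 fell at 22 h, with a median of 0.19 at 6 h that has the opposite sign to most calls. ELAC2, which trims the ends of transfer RNAs, rose at 6 h by 1.00 and MTPAP, the mitochondrial poly(A) polymerase, by 0.24. LRPPRC, which stabilises mitochondrial messengers, fell by 0.60 and POLG2, the accessory DNA polymerase subunit, by 0.48. TEFM, a transcription elongation factor, fell at 22 h by 0.43 and MTPAP rose by 0.19. Without 6 h replicate 1, 2 or 4 ELAC2 was lost (adjusted p up to 0.108), LRPPRC without any 1 of the 6 h arrays (up to 0.0775), and MTPAP at 6 h without 6 h replicate 1 or 3 (up to 0.0541) and at 22 h without any 1 of the 22 h arrays (up to 0.133). TFAM, which packages mitochondrial DNA, stood at -0.02 at both times (adjusted p of 0.810 and 0.754). Of the 17 genes, 1 rose and 2 fell at 6 h and 0 rose and 1 fell at 22 h without replicate 4 of both times. POLRMT, the mitochondrial RNA polymerase, stood at 0.34 and 0.20 (adjusted p of 0.0985 and 0.337).

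Of 12 nuclear regulators of mitochondrial biogenesis, 2 rose and 1 fell at 6 h, and 0 rose and 1 fell at 22 h, with 1 and 1 at an unadjusted p under 0.05. MYC, a transcription factor known to drive ribosome synthesis, had ratios of -0.72, -0.41, -0.72 and -1.01 at 6 h and of -1.28, -0.90, -1.04 and -0.30 at 22 h. It was below 0 on all arrays, with changes of -0.71 ± 0.16 (SE, n = 4 arrays, adjusted p = 0.0239) and -0.88 ± 0.16 (adjusted p = 0.0127). The call was lost at 6 h without 6 h replicate 1, 3 or 4 (adjusted p up to 0.103) and at 22 h without 22 h replicate 3 (adjusted p = 0.0797). ESRRA, an orphan nuclear receptor of energy metabolism, rose at 6 h by 0.51 ± 0.11 (adjusted p = 0.0236), and MAX, the partner of MYC, by 0.30. ESRRA was lost without 6 h replicate 1, 2 or 4 (adjusted p up to 0.113) and MAX also without 22 h replicate 3 (up to 0.122). Only MYC passed in this list without replicate 4 of both times, and it fell at both times. NRF1, a factor for many mitochondrial genes, stood at -0.06 at 6 h and 0.21 at 22 h, and GABPA at -0.02 and -0.03. The coactivator genes PPARGC1A, at 0.01 and -0.02, and PPRC1, at 0.36 and -0.06, also passed at neither time.

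Of 27 genes of mitochondrial protein import, the route by which ribosomal proteins enter, 6 rose and 3 fell at 6 h and 2 rose and 4 fell at 22 h. TIMM8A, a small chaperone of the intermembrane space, had ratios of 0.45, 0.72, 0.90 and 0.52 at 6 h and of -1.24, -1.12, -1.11 and -0.56 at 22 h. It was high on all 6 h arrays and low on all 22 h arrays, as MRPL15 was, with changes of 0.65 ± 0.11 (SE, n = 4 arrays, adjusted p = 0.00681) and -1.01 ± 0.11 (adjusted p = 0.00130). TOMM6, of the outer membrane translocase, rose at 6 h by 0.67 and GRPEL1, a cofactor of the import motor, by 0.66. PMPCB, of the peptidase that removes targeting sequences, fell at 6 h by 0.70 and TIMM21 by 0.49. TOMM20, a receptor for incoming proteins, fell at 22 h by 1.22, while SAMM50 rose by 0.90 and TIMM22 by 0.38. Between the times PMPCB was higher at 22 h by 1.03, TIMM8A lower by 1.66 and TOMM20 lower by 0.73. GRPEL1 was lost without 6 h replicate 1, 2 or 4 or 22 h replicate 3 or 4 (adjusted p up to 0.157), SAMM50 without 6 h replicate 1 or 2 or 22 h replicate 1, 3 or 4 (up to 0.132), and the later difference of TOMM20 without any 1 of the 6 h arrays or 22 h replicate 3 or 4 (up to 0.105). The other import calls given here passed with any 1 array left out. Without replicate 4 of both times, 3 import genes rose and 2 fell at 6 h, and 1 rose and 4 fell at 22 h. The calls of PMPCB were then lost (adjusted p of 0.0579 at 6 h and 0.0615 between the times). So were those of GRPEL1 at 6 h (0.178), SAMM50 at 22 h (0.0887) and TOMM20 between the times (0.0932).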

How the data were processed

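RNA of bovine granulosa cells was amplified as antisense RNA, labelled chemically with Cy3 and Cy5 and hybridised to 8 2-colour arrays, per the labels' protocols. Per the file headers, the scanner output as deposited gives unnormalised intensity of each spot and its local background in the Cy5 and Cy3 channels. A further table deposited by the authors holds log2 ratios that they had processed, by steps not given in the sources used here. Against the scanner values it gave r of 0.822 to 0.906 over probes, slopes of 1.07 to 1.26 and medians of -0.016 to 0.00502. It was read as log2 ratios already turned to post-LH over pre-LH and centred near 0, and served as an alternative.

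From 45212 spots an array, 1418 controls were set aside. Mean intensities were corrected with normexp (offset 50), normalised by loess within arrays and turned to post-LH over pre-LH, in limma 3.58.1 under R 4.3.3. Probes brighter than the 95th percentile of 153 negative controls on a share of 0.5 or more of the arrays of any RNA group were tested, 38453 in all. Symbols came from the platform annotation (21790 probes with 1 symbol, 22004 with none or with several, which were left without a symbol). Of the symbols, 1524 were updated through the reference gene table. Gene overlaps came from the same table.

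All 8 arrays entered 1 lmFit and eBayes model with a dye effect and a coefficient for each time (5 residual degrees of freedom). Reuse of pre-LH RNA was not modelled. P-values are limma's, with Benjamini-Hochberg adjustment across the 38453 probes. The number of arrays limits the precision. The fit was tested on simulated data. Named with values were up to 6 rises and 6 falls in each comparison, the 3 brightest members, members with opposing calls or misleading subunit names, and from each related list the 2 largest rises and falls, with 8 regulators always named. The members, roles and lists were chosen with earlier results of these data known. Alternatives covered background, normalization, filter, probe choice, dye, weights, the replicate block and left-out arrays. Leaving replicate 4 out of both times was added after the data were seen. No sequences are shown.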

Additional observations from a re-analysis of the deposited data

Results flagged for a closer look

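Each member's 4 ratios at each time were searched for an array far from the other 3, in 150 checks, by a rule that flags about 1 group in 20 by chance, and 11 stood out. At 6 h, replicate 1 was high for MRPL17 (0.48), MRPS12 (0.23) and MRPS33 (0.32), replicate 4 was high for MRPS18C (1.32) and nearer 0 than the others for MRPL22 (-0.12), and replicate 3 was low for MRPS2 (-0.16). At 22 h, replicate 3 was low for MRPS17 (-0.61), MRPS21 (-0.64) and MRPS22 (-0.28), and replicate 1 was high for MRPS2 (0.55) and MRPS26 (0.40).

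The change differed between the times, by the test of the difference in limma, for 9 members. MRPL10 (1.03), MRPL3 (0.85), MRPL9 (0.77) and MRPL51 (0.29) were higher at 22 h than at 6 h. MRPL15 (-1.31), MRPL12 (-1.13), MRPL42 (-1.06), MRPS27 (-0.51) and MRPL33 (-0.42) were lower. The probes of MRPL51 oppose each other, and time cannot be told apart from array set.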

How the results depend on the processing

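Median centring in place of loess gave 0 rises and 0 falls at 6 h and at 22 h, 0 higher and 0 lower between the times, and a median of -0.19 at 22 h. Scaling between arrays gave 0 and 0 at 6 h, 2 rises and 8 falls at 22 h, and 0 higher and 1 lower between the times. With only the 4 arrays of 22 h, 0 members rose and 6 fell at 22 h, where 7.25% of all genes were called and 3.57% fell. The deposited processed ratios gave 3 rises at 6 h. Without replicate 4 of both times, 2 members rose at 22 h. The mean over probes turned the difference of MRPL51 between the times to -0.14 (adjusted p = 0.205), since its probes oppose each other. The cause of these differences was not tested for any of the settings above. Leaving out 1 array gave 2 to 5 rises and 8 to 15 falls at 6 h, 1 to 4 rises and 8 to 16 falls at 22 h, and 2 to 4 higher and 5 to 6 lower between the times. In these fits 13.7% to 26.6% of all genes were called at 6 h and 10.4% to 20.1% at 22 h. Between the times 8.40% to 14.5% were called. No called change of a member other than that of MRPL51 changed sign under any alternative run.

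With the replicate block, 5 members rose and 15 fell at 6 h, and 4 rose and 16 fell at 22 h. Between the times 5 were higher and 8 lower. Over all genes, 23.8%, 20.2% and 14.3% were called in these comparisons, with 12.9%, 10.4% and 6.87% lower. Deviations of same-numbered arrays correlated at 0.33, 0.53, 0.41 and 0.22, but these arrays also share the dye orientation. After the dye effect r was -0.10, 0.18, 0.11 and -0.30. Fitting that effect itself lowers r between arrays of the same orientation, same-numbered ones included, and raises it between opposite ones. By the first measure 3 of 4 arrays correlated best with their own number, by the second 0 of 4, under the same limits. Neither measure can decide whether the numbers are pairs, and the main fit does not use them as pairs. In level, the replicate 4 arrays of both times went together, as described above. MRPL46, MRPS12 and MRPS35 fell short of the negative controls on some channels.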
